A study of Mus musculus with 32 samples.

Results

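The genes described here are the targets and regulators of the sterol regulatory element binding proteins (SREBPs), taken as a module of 34 genes out of 24421 in the count tables. Members were chosen by symbol from knowledge of the pathway, with earlier results of these data known. The sterol arm holds 21 of them, from the regulators Srebf2 and Insig1 through the cholesterol synthesis enzymes to the sterol carrier Stard4. The fatty acid arm holds 13, from the regulator Srebf1 through acetyl-CoA supply and fatty acid synthesis to elongases and desaturases. All 34 members were found in every library and all 34 passed the filter on low counts, so none dropped out of a test.

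SREBPs are made as membrane proteins of the endoplasmic reticulum. When membrane sterols are low, the escort protein Scap carries them to the Golgi, where the proteases encoded by Mbtps1 and Mbtps2 release the active transcription factor. The protein made from Srebf2 mainly drives cholesterol synthesis and the main form made from Srebf1 mainly drives fatty acid synthesis. Insig1 protein holds the Scap complex back, and its gene is itself a target, which closes a feedback loop. In macrophages the pathway is known to respond to cholesterol loading and to oxysterols, which also activate the liver X receptors (LXRs).

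RNA was sequenced from adipose tissue macrophages of epididymal fat of C57BL/6J mice, as 32 bulk libraries in 8 groups of 4. Mice were wild type (WT) or carried a myeloid-specific knockout of A20 (KO, spelled A20myel-KO in the series' design text and A20meyl KO in the sample titles), the ubiquitin-editing inhibitor of inflammatory signalling encoded by Tnfaip3. They were fed a high fat diet (HFD) or standard diet (SD) for 12 weeks, and macrophages were sorted by flow cytometry into CD11c+ (CD206 low, CD11c high) and CD206+ cells. What drives the knockout, how old the mice were and whether animals were pooled is not stated in the labels. Nothing in the labels ties each library to a mouse of its own, and the p-values therefore reflect library-to-library spread, which may be technical in part.

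Libraries held 17619638 to 23832924 counts in genes. Levels are in CPM, the usual count of a gene relative to its library's total, after scaling of library sizes, and changes are log2 fold changes with their standard error (SE). A gene is called changed at a Benjamini-Hochberg adjusted p under 0.05 from a quasi-likelihood test in edgeR across 13453 genes. Tnfaip3 stood at 167 to 474 CPM in KO libraries and 486 to 1650 CPM in WT libraries, so the genotypes did not overlap. Itgax, which encodes CD11c, stood at 146 to 379 CPM in CD11c+ and 1.25 to 50.3 CPM in CD206+ libraries. Its mean was 34.4 CPM in WT HFD CD206+ and 3.41 to 4.54 CPM in the other CD206+ groups. Of 7 macrophage genes Adgre1, Csf1r, Cd68, Lyz2 and Itgam were at 365 CPM or more in every library. The other 2 were lower in CD11c+ cells of WT SD, with means of 17.5 CPM for Fcgr1 and 22.5 CPM for Mertk against 88.8 and 93.6 CPM in WT SD CD206+ cells. WT SD CD11c+ cells also had the lowest group means of Adgre1 (564 CPM, against 961 to 1670) and Csf1r (1770 CPM, against 2530 to 4390). Their Lyz2 mean was the highest (27500 CPM, against 10200 to 13900). The WT SD libraries of both populations stood apart from the other groups on the third principal component (13.4% of variance, group means 38.5 and 34.5 against -22.9 to -6.4), which touches every comparison that uses them. These are bulk samples, so fewer cells of a type and less RNA per cell cannot be told apart.

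Promoters are shown first because most members share sequence features there. The RefSeq table (GRCm38.p6) held promoters for 27 of the 34 members, 17 in the sterol arm and 10 in the fatty acid arm, each with 250 bases before the start site and 50 after. Motifs were searched on both strands. The sterol regulatory element TCACNCCAC was found in 1 of 17 sterol arm genes and 0 of 10 fatty acid arm genes, beside 1.44% of all 27025 genes in the table. CCAAT, the box bound by NF-Y, a known partner of SREBPs, was in 16 of 17 sterol arm genes (94.1%) and 7 of 10 fatty acid arm genes (70.0%), beside 41.1% of all genes. GGGCGG, the GC box, was in 16 of 17 sterol arm and 6 of 10 fatty acid arm genes, beside 38.2% of all. The E-box CACGTG was in 4 of 17 and 1 of 10, beside 8.09% of all.

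Hmgcs1, which encodes the cytosolic synthase that makes 3-hydroxy-3-methylglutaryl-CoA, was the member with a sterol regulatory element match. Its site begins 137 bases before the start. Msmo1, a C4-demethylating oxidase of the late sterol pathway, and Mvd, the decarboxylase that makes isopentenyl diphosphate, were added after their values were seen as sterol arm members with many called comparisons. Elovl5, an elongase of polyunsaturated fatty acids, was added in the same way for the fatty acid arm. The 250 bases before each start are given 5′ to 3′ on the gene's strand, with capitals marking CCAAT or its complement ATTGG and, in Hmgcs1, also the sterol element TCACCCCAC. They lie at chr13:119690101-119690350 (plus strand) for Hmgcs1, chr8:64733579-64733828 (minus) for Msmo1, chr8:122443423-122443672 (minus) for Mvd and chr9:77917115-77917364 (plus) for Elovl5.
Hmgcs1: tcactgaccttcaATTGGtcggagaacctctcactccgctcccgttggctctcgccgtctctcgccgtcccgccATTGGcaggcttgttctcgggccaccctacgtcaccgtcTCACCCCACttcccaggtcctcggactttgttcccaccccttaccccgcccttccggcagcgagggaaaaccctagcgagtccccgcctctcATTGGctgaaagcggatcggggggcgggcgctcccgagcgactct
Msmo1: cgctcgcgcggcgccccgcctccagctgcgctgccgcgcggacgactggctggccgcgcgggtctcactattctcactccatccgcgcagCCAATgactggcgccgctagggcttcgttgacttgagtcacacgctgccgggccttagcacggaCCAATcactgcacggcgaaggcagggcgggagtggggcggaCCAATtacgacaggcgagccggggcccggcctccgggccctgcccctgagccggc
Mvd: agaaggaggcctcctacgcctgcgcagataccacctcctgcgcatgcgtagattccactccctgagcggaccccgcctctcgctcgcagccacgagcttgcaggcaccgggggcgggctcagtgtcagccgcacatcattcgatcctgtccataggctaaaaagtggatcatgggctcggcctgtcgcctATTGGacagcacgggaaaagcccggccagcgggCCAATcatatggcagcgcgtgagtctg
Elovl5: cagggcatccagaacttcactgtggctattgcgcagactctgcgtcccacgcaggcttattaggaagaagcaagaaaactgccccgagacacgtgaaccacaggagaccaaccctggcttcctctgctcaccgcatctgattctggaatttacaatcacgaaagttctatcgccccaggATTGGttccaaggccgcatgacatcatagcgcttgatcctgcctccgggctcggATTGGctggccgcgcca
In Hmgcs1 the boxes begin 237, 176 and 45 bases before the start. Msmo1 has them at 160, 96 and 55, Mvd at 60 and 27, and Elovl5 at 71 and 17. A match describes the letters only.

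The sterol arm had its highest level in KO SD CD11c+ macrophages and was lower in CD206+ than in CD11c+ macrophages of the same genotype and diet. Averaged over its 21 members as log2(CPM + 1), the arm stood at 5.40 ± 0.12 (SD, n = 4) in KO SD CD11c+ libraries, 4.97 ± 0.34 in WT SD CD11c+, 4.92 ± 0.20 in KO HFD CD11c+ and 4.83 ± 0.10 in WT HFD CD11c+. Among CD206+ groups it stood at 4.64 ± 0.20 in KO SD, 4.40 ± 0.07 in WT HFD, 4.26 ± 0.24 in KO HFD and 4.17 ± 0.18 in WT SD. The wide spread in WT SD CD11c+ came from replicate 1 at 5.42, while the other libraries of that group lay between 4.59 and 4.95. Of the 21 sterol members, 18 had their highest group mean in KO SD CD11c+ and 12 their lowest in WT SD CD206+.

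The fatty acid arm was not ordered in that way. Its means ran from 4.52 in KO HFD CD206+ to 5.06 in KO SD CD11c+, and WT SD CD206+ (4.85) was next to WT SD CD11c+ (4.86). Of its 13 members, 5 were highest in WT SD CD11c+, 4 in KO SD CD11c+, 2 in WT HFD CD11c+ and 2 (Scd1 and Me1) in WT SD CD206+. Srebf1 was among the 4 in KO SD CD11c+, and Srebf2 was highest in WT SD CD11c+.

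**Figure D1:**
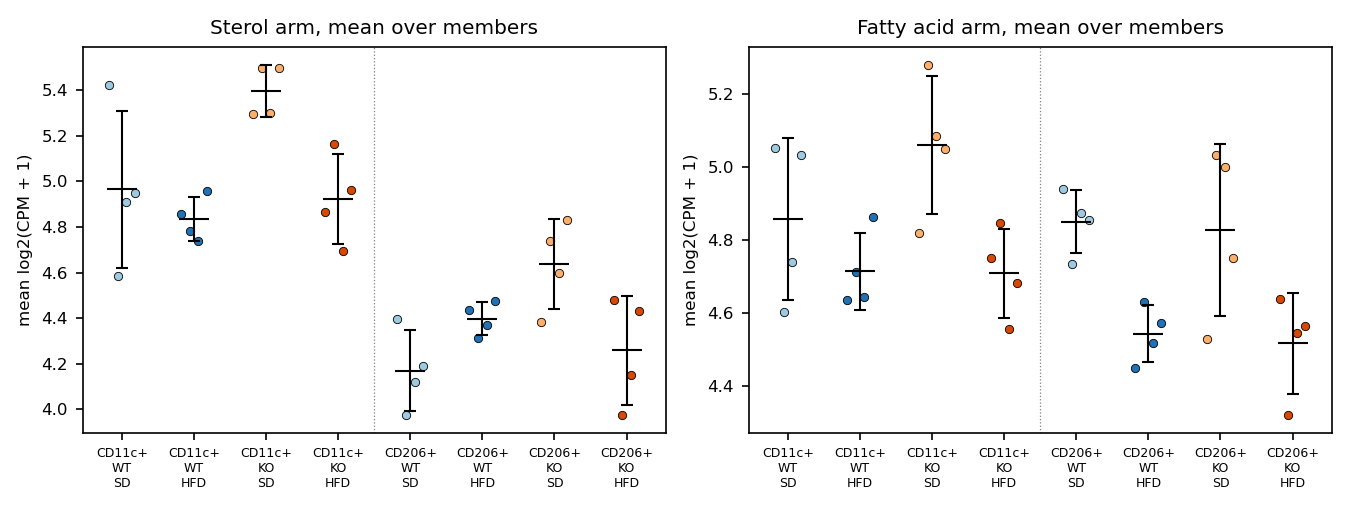
Mean log2(CPM + 1) over the 21 sterol arm members (left) and the 13 fatty acid arm members (right); each point is a library, bars are the mean and SD of 4 libraries, and the vertical axes do not start at 0. The KO SD CD11c+ libraries have the highest sterol arm mean (5.40), and all CD206+ sterol means lie at 4.64 or below.

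Fdps encodes farnesyl diphosphate synthase, at the branch between sterols and prenylated products (chr3:89093588-89101967, GRCm38.p6). Its 4 libraries, in replicate order, read 62.2, 21.2, 38.2 and 46.4 CPM in WT SD CD11c+, 42.6, 33.0, 37.2 and 44.6 CPM in WT HFD CD11c+, 53.2, 91.0, 84.5 and 83.7 CPM in KO SD CD11c+, and 57.8, 66.1, 35.6 and 58.4 CPM in KO HFD CD11c+. In CD206+ macrophages Fdps read 17.9, 11.2, 11.3 and 13.7 CPM in WT SD, 21.6, 21.1, 25.8 and 23.8 CPM in WT HFD, 20.3, 35.0, 31.6 and 43.1 CPM in KO SD, and 23.7, 16.1, 19.3 and 27.7 CPM in KO HFD. The KO SD libraries were high in both populations and the WT SD CD206+ group had the lowest mean (13.5 CPM), with a range that overlapped only KO HFD CD206+.

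Sqle encodes squalene epoxidase, a rate-limiting step of the sterol branch (chr15:59315092-59331193). It read 63.8, 23.6, 28.7 and 26.9 CPM in WT SD CD11c+, 32.03, 33.5, 29.5 and 44.6 CPM in WT HFD CD11c+, 51.0, 67.2, 47.6 and 68.0 CPM in KO SD CD11c+, and 27.7, 44.1, 22.2 and 39.4 CPM in KO HFD CD11c+. The CD206+ values were 14.9, 7.64, 9.85 and 10.9 CPM in WT SD, 19.5, 17.6, 18.1 and 25.4 CPM in WT HFD, 15.0, 30.7, 24.0 and 37.1 CPM in KO SD, and 19.9, 9.94, 11.1 and 18.1 CPM in KO HFD. Replicate 1 of WT SD CD11c+ stood above the other libraries of its group, which lay at 23.6 to 28.7 CPM and overlapped the WT HFD and KO SD CD206+ libraries.

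For Hmgcs1 (chr13:119690351-119708260) the CD11c+ libraries read 111, 67.3, 63.5 and 46.8 CPM in WT SD, 96.7, 94.6, 68.7 and 107 CPM in WT HFD, 92.5, 107, 81.3 and 137 CPM in KO SD, and 50.05, 61.3, 59.4 and 71.6 CPM in KO HFD. Its CD206+ libraries read 38.5, 36.1, 36.6 and 38.2 CPM in WT SD, 60.7, 54.5, 49.6 and 69.6 CPM in WT HFD, 51.3, 56.1, 50.4 and 78.1 CPM in KO SD, and 44.0, 35.9, 36.9 and 48.8 CPM in KO HFD. In both populations the KO group on SD and the WT group on HFD had the 2 highest means, and the ranges of those groups overlapped. Msmo1 had the same order of means in CD206+ macrophages, 68.8 CPM in KO SD and 66.4 CPM in WT HFD against 46.8 CPM in KO HFD and 41.2 CPM in WT SD.

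**Figure D2:**
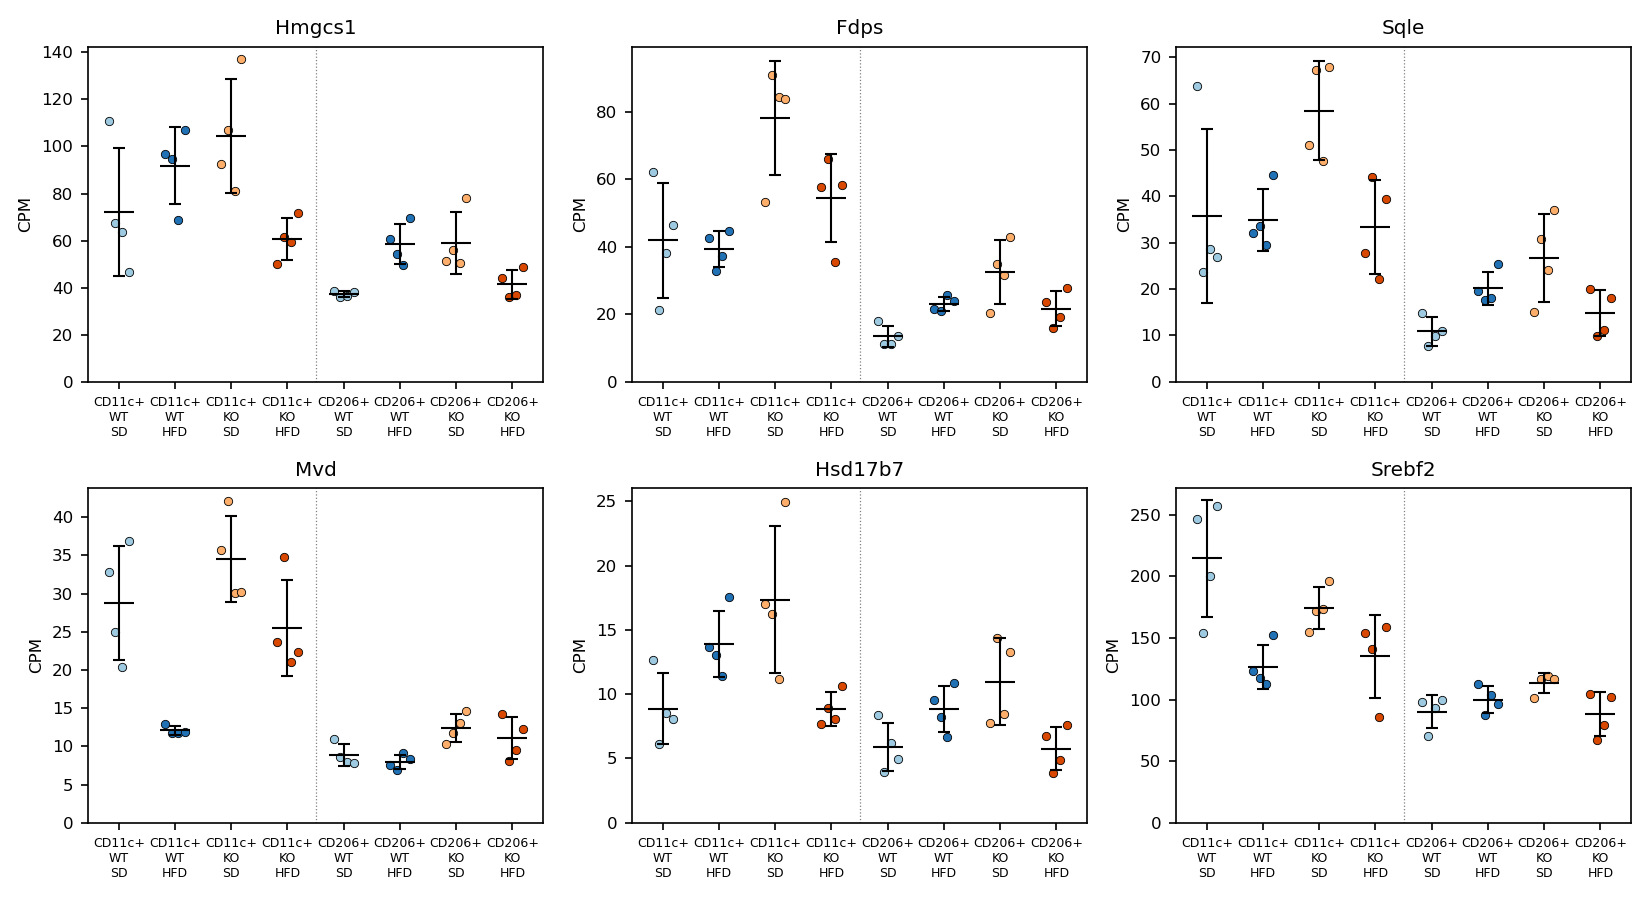
CPM of 6 sterol arm genes in each of the 32 libraries (points), with the mean and SD of each group of 4 (bars). CD206+ groups lie below their CD11c+ counterparts for Fdps, Sqle and Mvd, and WT SD CD11c+ replicate 1 stands high for Sqle (63.8 CPM).

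The comparison of CD11c+ with CD206+ macrophages asks how the populations differ within a genotype and diet. Sterol arm genes were higher in CD11c+ macrophages wherever they passed the test, and no sterol member was called lower in any of the 4 comparisons. On SD, 18 of 21 were called higher in WT and 19 of 21 in KO. On HFD the counts were 16 of 21 in KO and 8 of 21 in WT. All genes tested were called higher in 30.2% (WT SD), 25.6% (KO SD), 23.3% (KO HFD) and 11.7% (WT HFD) of cases, and lower in 33.5%, 26.1%, 22.5% and 8.7%. The arm's median log2 fold change was 0.78, 0.74, 0.64 and 0.56 in the same order, beside medians of all genes between -0.07 and 0.00. Every CD11c+ library lay above every CD206+ library for 12, 19, 15 and 14 sterol members, and for 25.6%, 22.7%, 19.8% and 17% of all genes.

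The same 8 sterol members were called higher in all 4 comparisons: Hmgcs1, Mvk, Mvd, Fdps, Sqle, Lss, Msmo1 and Nsdhl. They run from early steps (Hmgcs1, and mevalonate kinase Mvk) to squalene cyclisation (Lss) and removal of the C4 methyl groups (Msmo1, Nsdhl). In WT SD the largest changes were Sqle (1.73 ± 0.30, adjusted p = 1.3e-05), Mvd (1.70 ± 0.19, adjusted p = 5.56e-09), Fdps (1.63 ± 0.26, adjusted p = 2.62e-06) and the lanosterol demethylase Cyp51 (1.60 ± 0.26, adjusted p = 4.63e-06). KO SD was led by Mvd (1.47 ± 0.18), Fdps (1.27 ± 0.25), Cyp51 (1.13 ± 0.26) and Sqle (1.13 ± 0.29). KO HFD was led by Fdps (1.33 ± 0.25), Mvd (1.20 ± 0.18), Sqle (1.18 ± 0.29) and the isomerase Idi1 (1.00 ± 0.28). In WT HFD, Sqle (0.79 ± 0.29, adjusted p = 0.0498), Fdps (0.77 ± 0.25), Msmo1 (0.73 ± 0.17) and Lss (0.67 ± 0.21) led. Single-library repeats in WT HFD lost the call of Sqle in 7 of 8 and of Lss in 5. Fdps and Nsdhl lost it in 4, and Hmgcs1, Mvk and Mvd in 3. Msmo1 lost it in 0, with an adjusted p of at most 0.0131.

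Mvd (chr8:122433596-122443422) shows the separation by library. Its CD11c+ libraries read 32.8, 24.9, 20.4 and 37.0 CPM in WT SD, 13.0, 11.7, 11.7 and 11.9 CPM in WT HFD, 35.8, 42.1, 30.1 and 30.2 CPM in KO SD, and 23.7, 34.9, 21.1 and 22.4 CPM in KO HFD. CD206+ libraries read 10.9, 8.61, 7.95 and 7.86 CPM in WT SD, 7.62, 6.95, 9.09 and 8.37 CPM in WT HFD, 10.3, 11.8, 13.0 and 14.6 CPM in KO SD, and 14.2, 8.09, 9.57 and 12.3 CPM in KO HFD. The populations did not overlap within any genotype and diet, and the gap was narrowest in WT HFD.

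The regulators differed among themselves. Srebf2 was higher in CD11c+ macrophages in WT SD (1.25 ± 0.17, adjusted p = 2.62e-07), KO SD (0.62 ± 0.17, adjusted p = 0.00288) and KO HFD (0.61 ± 0.17, adjusted p = 0.00371), and in WT HFD the value was 0.34 ± 0.17 (adjusted p = 0.147). Srebf1 was higher on SD in WT (0.61 ± 0.14) and KO (0.56 ± 0.14), with 0.33 ± 0.14 (adjusted p = 0.0556) in KO HFD and 0.29 ± 0.14 (adjusted p = 0.144) in WT HFD. Insig1 passed in none of the 4, with changes from 0.01 ± 0.11 to 0.24 ± 0.11. Its group means spanned 86.7 to 134 CPM, a 1.54-fold range over the 8 groups, beside 5.77-fold for Fdps.

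In WT HFD the replicate number, which paired the CD11c+ and CD206+ libraries by the check on deviations, changed the count. With the number as a block 15 sterol members were called higher and 0 lower, beside 8 and 0 without it. Without single libraries the unblocked sterol count was 3 (WT HFD CD11c+ replicate 1 or 4 left out), 5 (WT HFD CD11c+ replicate 3), 4 (WT HFD CD206+ replicate 1 or 3) and 2 (WT HFD CD206+ replicate 2), and 0 members were lower each time. Without WT HFD CD11c+ replicate 4 the fatty acid members called higher were 1 in place of 3.

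The fatty acid arm was called in both directions between the populations on SD and in KO HFD. Elovl5 and Elovl1, elongases of polyunsaturated and of very long chain fatty acids, were higher in CD11c+ macrophages in all 4 comparisons. Elovl5 (chr9:77917365-77984519) rose by 1.53 ± 0.10 in WT SD, 1.07 ± 0.10 in KO SD, 0.86 ± 0.10 in KO HFD and 0.43 ± 0.10 in WT HFD. Elovl1 rose by 0.32 ± 0.10 in WT HFD (adjusted p = 0.0256), and its span overlaps that of the cell cycle gene Cdc20. Acss2 was also called higher in WT HFD, with means of 8.79 CPM in CD11c+ and 5.60 CPM in CD206+. Its change was larger, at 0.49 to 0.81 in single-library repeats. Called counts were 7 higher and 4 lower of 13 in WT SD, 7 and 3 in KO SD, 5 and 2 in KO HFD and 3 and 0 in WT HFD. In the same order 30.2%, 25.6%, 23.3% and 11.7% of all genes were called higher. All genes were called lower in 33.5%, 26.1%, 22.5% and 8.7% of cases, so the arm's lower calls were no larger a share than those of all genes.

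Fasn, the fatty acid synthase, was higher in CD11c+ macrophages in WT SD (0.97 ± 0.25, adjusted p = 0.00119) and KO HFD (0.83 ± 0.25, adjusted p = 0.00844). Scd2, a stearoyl-CoA desaturase, was higher in KO SD (1.64 ± 0.39) and KO HFD (1.30 ± 0.39). The members called lower in CD11c+ macrophages were Scd1, Fads1, Me1 and Fads2. Scd1, the other abundant desaturase, fell by 2.91 ± 0.44 in WT SD, 2.12 ± 0.43 in KO SD and 1.42 ± 0.42 in KO HFD, and the value in WT HFD was -0.66 ± 0.44 (adjusted p = 0.3). Fads1, the delta-5 desaturase, fell by 0.96 ± 0.13 in WT SD. Scd1 and Scd2 are related neighbours on chromosome 19, and how reads that fit both were counted is not stated.

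Other cell markers and states moved with population. The summed level of 16 adipocyte markers was 225 to 318 CPM in WT SD CD206+, 165 to 262 in KO SD CD206+, 120 to 277 in KO HFD CD206+ and 44.4 to 95.7 in WT HFD CD206+, against 20.6 to 105 CPM over all CD11c+ groups. Of 15 adipocyte markers tested, 15, 14, 15 and 0 were called lower in CD11c+ macrophages in WT SD, KO SD, KO HFD and WT HFD. Cidea was at 0 in every WT SD CD11c+ and KO HFD CD11c+ library, and no other of these markers was at 0 through a whole group. With the log2 of this sum as a covariate the sterol counts were 3 higher in WT SD, 6 in KO SD, 5 in KO HFD and 3 in WT HFD, each with 0 lower. In WT HFD the adipocyte sums of the populations overlapped in part, at 20.6 to 56.9 CPM in CD11c+ and 44.4 to 95.7 CPM in CD206+. Summed cell cycle genes stood at 407 to 744 CPM in CD11c+ and 200 to 470 CPM in CD206+ libraries, and summed immediate early genes at 6790 to 19900 and 11500 to 29500 CPM. Within each genotype and diet the cell cycle sums of the populations did not overlap (502 to 589 against 306 to 470 CPM in WT HFD). Of 10 cell cycle genes 9 were called higher in CD11c+ cells in WT SD, KO SD and KO HFD. In WT HFD 4 were, and 0 were lower in any of the 4 comparisons. In the order WT SD, KO SD, KO HFD and WT HFD, 10, 9, 8 and 6 of 10 stromal markers and 9, 8, 7 and 3 of 9 endothelial markers were called lower in CD11c+ cells, with 0 higher. Of 6 dendritic cell markers 4, 5, 5 and 4 were called higher and 0 lower. Of the 7 macrophage genes 4, 4, 4 and 1 were called lower and 2, 1, 0 and 1 higher. Stromal sums ran from 52.0 to 631 CPM over CD11c+ and 226 to 2000 CPM over CD206+ libraries. In WT SD, KO SD and KO HFD the adipocyte sums of the populations did not overlap, so there the covariate largely follows population. A call lost under the covariate there cannot tell the adipocyte sum and population apart. The part of any of these lists in the result was not tested.

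Genes beside the module were called in both directions. Scap, the escort, was higher in CD11c+ macrophages in WT SD (0.88 ± 0.12), KO SD (0.72 ± 0.12) and KO HFD (0.51 ± 0.12). Of 10 escort and processing genes 2 were called higher and 0 lower in WT SD, 2 and 2 in KO SD, 2 and 1 in KO HFD and 0 and 1 in WT HFD, shares no higher than those of all genes except for the lower gene in WT HFD. Of 10 LXR genes 4 were called higher in WT SD and 4 lower, among them Apoe, which encodes a lipid carrier (-2.83 ± 0.20), and the cholesterol exporter Abca1 (-2.28 ± 0.23). Aldoc, a glycolytic SREBP target outside the module, was higher by 1.51 ± 0.22 to 1.98 ± 0.23 in WT SD, KO SD and KO HFD. Thrsp, a lipogenic gene abundant in adipocytes, was lower by 2.74 ± 0.53 in WT SD. The 14 further lipogenic and sterol genes had 6 called higher and 4 lower in WT SD, 7 and 3 in KO SD, 6 and 2 in KO HFD and 4 and 0 in WT HFD. Of 9 genes of the isoprenoid branch at most 1 was called in either direction in any of the 4 comparisons.

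**Figure D3:**
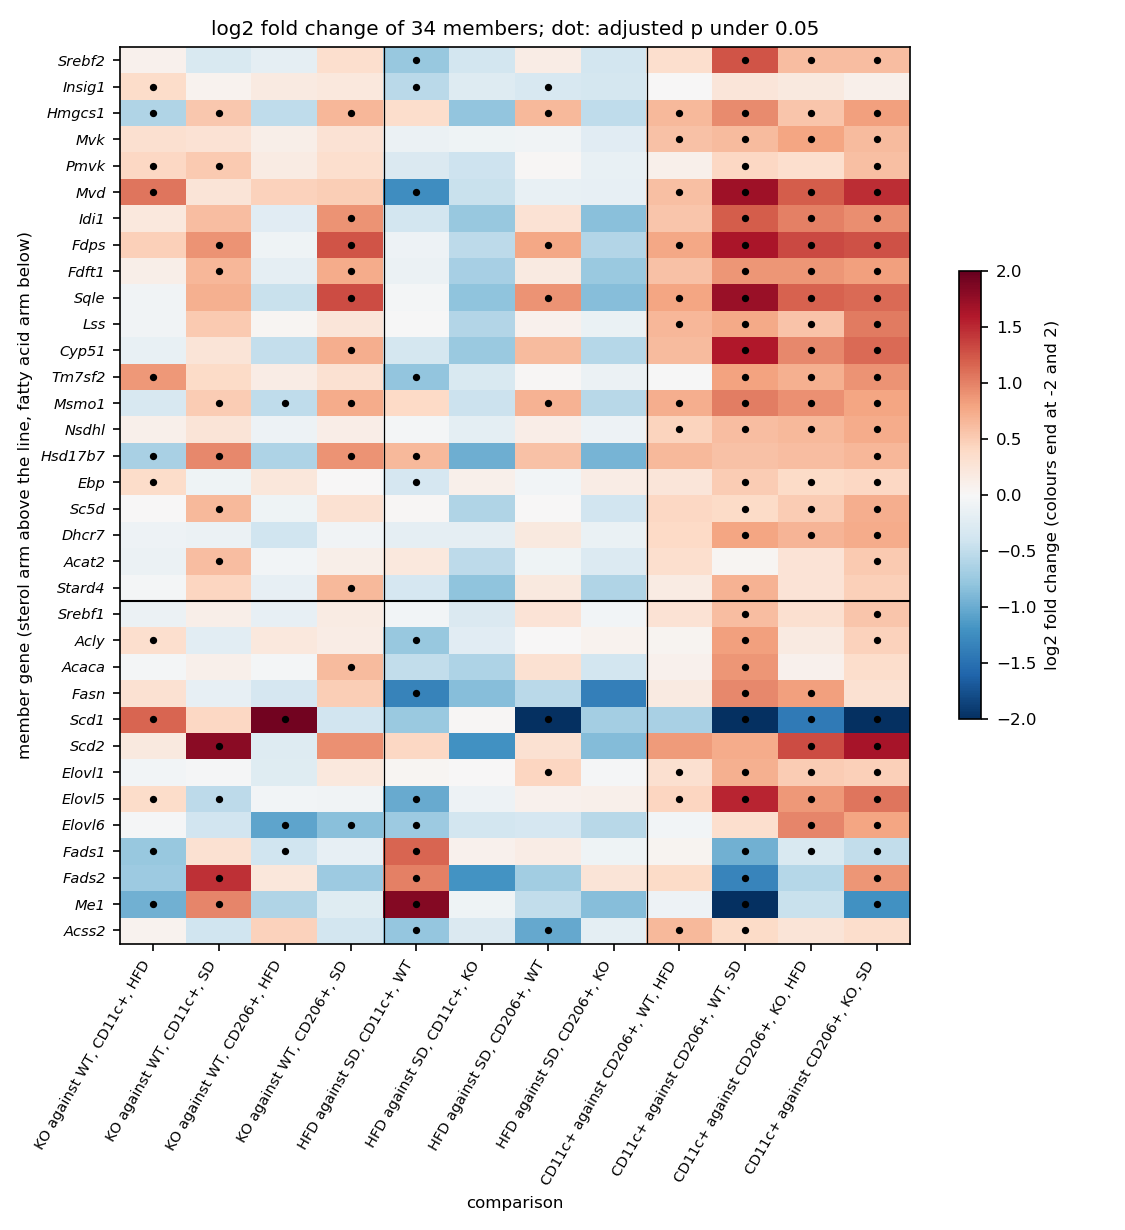
log2 fold change of each of the 34 members (rows) in the 12 comparisons of 2 groups (columns), with a dot where the adjusted p is under 0.05. The 4 columns at the right (CD11c+ against CD206+) are red for nearly all sterol arm rows, and the 2 columns of HFD against SD in KO carry no dot.

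HFD against SD asks how the diet moved the module, first in WT mice. In CD11c+ macrophages 5 sterol members were called lower and 1 higher of 21, with a median of -0.12, and 5 fatty acid members were lower and 3 higher of 13, with a median of -0.50. Over all genes 22.6% were called lower and 23.8% higher. Mvd fell by 1.25 ± 0.18 (adjusted p = 1.34e-06), Srebf2 by 0.76 ± 0.17 (adjusted p = 0.000377), the sterol reductase Tm7sf2 by 0.79 ± 0.19, Insig1 by 0.55 ± 0.11 (adjusted p = 0.000205) and Ebp, a sterol isomerase, by 0.34 ± 0.09. Hsd17b7, a ketoreductase of the late sterol pathway, rose by 0.65 ± 0.26 (adjusted p = 0.0395). Without WT SD CD11c+ replicate 1 the sterol members called higher were 5, and they were 0 without any other library of the comparison except WT HFD CD11c+ replicate 3. Tm7sf2 overlaps the protein-coding gene Vps51.

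Srebf2 (chr15:82147269-82205379) read 247, 154, 200 and 257 CPM in WT SD CD11c+ and 123, 118, 112 and 153 CPM in WT HFD CD11c+. The SD libraries lay above the HFD libraries, the nearest pair being 154 and 153 CPM. Insig1 (chr5:28071412-28078662) read 153, 118, 120 and 119 CPM on SD and 91.1, 89.0, 75.1 and 94.4 CPM on HFD in the same cells. Its groups did not overlap either. Srebf1 stood at 72.5 ± 18.9 CPM on SD and 70.0 ± 9.0 CPM on HFD (SD, n = 4), a change of -0.05 ± 0.14 (adjusted p = 0.8).

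The fatty acid arm showed larger shifts in WT CD11c+ macrophages. Fasn (chr11:120805958-120825166) read 76.9, 42.4, 59.6 and 80.2 CPM on SD and 21.8, 25.2, 22.9 and 32.9 CPM on HFD, and fell by 1.33 ± 0.25 (adjusted p = 5.22e-05). Elovl5 read 261, 198, 232 and 237 CPM on SD and 107, 117, 117 and 120 CPM on HFD, and fell by 1.00 ± 0.10 (adjusted p = 7.61e-10). Acss2, which makes acetyl-CoA from acetate, fell by 0.77 ± 0.17, and Acly, which makes it from citrate, by 0.76 ± 0.11. Fads1 (chr19:10182877-10196874) went the other way, from 56.4, 41.9, 51.2 and 62.0 CPM to 126, 106, 115 and 125 CPM, a rise of 1.16 ± 0.13 (adjusted p = 9.13e-09). For each of these 5 called genes the diets did not overlap, and the share of all genes without overlap is not given for this comparison. Me1, the NADPH-producing malic enzyme, rose by 1.84 ± 0.30 at levels of 1.56 to 5.60 CPM on average.

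In WT CD206+ macrophages few sterol members were called between the diets, and the difference from CD11c+ cells in the diet effect was not tested. Here 4 sterol members were called higher and 1 lower, with a median of 0.15, beside 14.2% of all genes called higher and 13.5% lower. Sqle rose by 0.90 ± 0.30 (adjusted p = 0.0249), Fdps by 0.77 ± 0.25 (adjusted p = 0.0232), Msmo1 by 0.69 ± 0.17 (adjusted p = 0.00325) and Hmgcs1 by 0.65 ± 0.20 (adjusted p = 0.0128). All 4 called members were higher in every HFD library than in every SD library. The share of all genes without overlap is not given for this comparison. The sterol count was 2 without WT HFD CD206+ replicate 4, WT SD CD206+ replicate 2 or WT SD CD206+ replicate 3, and the call of the lower member was lost without any 1 of the 8 libraries. Insig1 fell by 0.31 ± 0.11 (adjusted p = 0.0383), Srebf2 was at 0.15 ± 0.17 (adjusted p = 0.546) and Srebf1 at 0.28 ± 0.14 (adjusted p = 0.145).

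Of the fatty acid arm 1 member was called higher and 2 lower in WT CD206+ macrophages. Acss2 read 12.4, 10.4, 12.5 and 10.4 CPM on SD and 6.01, 5.58, 5.58 and 5.23 CPM on HFD, and fell by 1.03 ± 0.17 (adjusted p = 4.24e-05). Elovl1 rose by 0.44 ± 0.10. Scd1 (chr19:44394450-44407709) read 149, 129, 142 and 191 CPM on SD and 20.5, 24.3, 15.8 and 15.8 CPM on HFD, a fall of 3.00 ± 0.44 (adjusted p = 7.33e-06). Among the 15 adipocyte markers 12 were called lower on HFD in these cells, with a median of -2.39. With the adipocyte sum as a covariate 0 sterol members and 1 fatty acid member were called, and the values were 0.52 for Hmgcs1 (adjusted p = 0.391), 0.72 for Msmo1 (adjusted p = 0.147) and -0.77 for Scd1 (adjusted p = 0.445). The sums did not overlap between the diets in these cells (225 to 318 CPM on SD, 44.4 to 95.7 on HFD). The covariate thus largely follows diet here, and a lost call cannot tell the adipocyte sum and diet apart.

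The LXR list was called in 1 direction with HFD in WT macrophages. In CD11c+ cells 5 of 10 were called higher and 0 lower, led by Apoe (2.84 ± 0.20) and Abca1 (2.34 ± 0.23), and in CD206+ cells 3 were called higher, led by Abcg1 (1.60 ± 0.18) and Nr1h3, which encodes LXR alpha (1.52 ± 0.19). Of the 10 escort and processing genes 2 were higher and 4 lower in CD11c+ cells, and 0 and 1 in CD206+ cells. Rnf145, a sterol-responsive ubiquitin ligase, fell in both populations (0.67 ± 0.11 lower in CD11c+, adjusted p = 8.87e-06), and Mbtps2 rose by 0.68 ± 0.22 in CD11c+. Nus1, of the dolichol branch, rose by 0.79 ± 0.14 and 0.69 ± 0.14. Markers of other cells moved too: summed stromal markers were 60.7 to 181 CPM in WT SD CD11c+ and 209 to 631 in WT HFD CD11c+, and summed dendritic cell markers were 263 to 533 and 25.7 to 91.9 CPM. In CD206+ cells the dendritic sums were 246 to 306 CPM on SD and 22.5 to 32.3 on HFD. Immediate early sums were 14200 to 19900 CPM on SD and 6790 to 8350 on HFD in CD11c+ cells. In CD206+ cells 9 of 10 cell cycle genes were called higher on HFD and 0 lower, with sums of 200 to 275 CPM on SD and 306 to 470 on HFD. In CD11c+ cells 5 of 7 macrophage genes were called higher and 2 lower. T cell sums in CD11c+ cells were 175 to 231 CPM on SD and 92.9 to 121 on HFD, with 1 of 6 markers called higher and 2 lower. The part of these lists in the diet changes was not tested.

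In KO macrophages no member was called between the diets. Almost no gene was: edgeR called 0.00743% of genes higher and 0% lower in CD11c+ cells, and 0% in each direction in CD206+ cells. At an unadjusted p under 0.05, 1221 of 13453 genes and 20 of 34 members passed in CD11c+ cells, and 831 genes and 15 members in CD206+ cells. The sterol medians were -0.52 and -0.36, with 1 of 21 members above 0 in each, beside all-gene medians of 0.00 in both. DESeq2 called 51 genes in CD11c+ cells, among them Hmgcs1, Hsd17b7 and Sc5d, and 18 in CD206+ cells, among them Fasn.

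The values by library were apart for some members. Hmgcs1 in KO CD11c+ macrophages stood at 81.3 to 137 CPM on SD and 50.05 to 71.6 CPM on HFD without overlap, at -0.79 ± 0.19 (adjusted p = 0.12). Of the sterol members 10 had no overlap in CD11c+ and 4 in CD206+, each with HFD the lower, as had 1.67% and 1.98% of all genes in that direction. Fasn in KO CD206+ macrophages read 24.1, 67.7, 61.6 and 32.3 CPM on SD and 19.6, 12.8, 19.5 and 19.98 CPM on HFD, at -1.37 ± 0.25 (adjusted p = 0.0966). Srebf2 was at -0.37 ± 0.17 (adjusted p = 0.508) and -0.36 ± 0.17 (adjusted p = 0.787) in CD11c+ and CD206+ cells, Srebf1 at -0.28 ± 0.14 and -0.05 ± 0.14, and Insig1 at -0.25 ± 0.11 and -0.36 ± 0.11. The adipocyte sums of the diets overlapped in KO CD206+ macrophages (165 to 262 CPM on SD, 120 to 277 on HFD).

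KO against WT asks how loss of A20 in myeloid cells moved the module, and on SD part of the sterol arm was higher in KO in both populations. In CD11c+ macrophages 8 of 21 were called higher and 0 lower, with a median of 0.50, beside 13.2% of all genes higher and 13.6% lower. In CD206+ macrophages 9 of 21 were called higher and 0 lower, with a median of 0.34, beside 11.8% and 12.7%. The KO and WT comparisons on SD use the same 4 WT SD libraries as the diet comparisons in WT. Fdps rose by 0.90 ± 0.24 in CD11c+ (adjusted p = 0.00627) and 1.26 ± 0.25 in CD206+ cells (adjusted p = 0.000411). Hsd17b7 (chr1:169949535-169969242) rose by 0.97 ± 0.26 and 0.90 ± 0.26. Fdft1, the squalene synthase, rose by 0.67 ± 0.23 and 0.74 ± 0.24, and its span overlaps that of the abundant lysosomal gene Ctsb. In CD11c+ cells the list also held Sc5d, a sterol desaturase (0.64 ± 0.15), and in CD206+ cells Sqle (1.30 ± 0.30, adjusted p = 0.00166) and Idi1 (0.89 ± 0.28).

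Hsd17b7 read 12.7, 6.13, 8.50 and 8.08 CPM in WT SD CD11c+ and 17.0, 16.2, 11.2 and 25.0 CPM in KO SD CD11c+. In SD CD206+ cells it read 8.37, 3.98, 6.24 and 4.96 CPM in WT and 7.74, 14.4, 8.43 and 13.3 CPM in KO. The ranges overlapped in both populations. Over the sterol arm, 3 members had no overlap in CD11c+ and 7 in CD206+ cells, each higher in KO, beside 11.7% and 12.8% of all genes in that direction. The regulators did not pass: Srebf2 was at -0.30 ± 0.17 (adjusted p = 0.188) and 0.33 ± 0.17 (adjusted p = 0.158), Insig1 at 0.07 ± 0.11 and 0.21 ± 0.11, and Srebf1 at 0.12 ± 0.14 and 0.17 ± 0.14.

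Leaving out single libraries changed these counts. Without WT SD CD11c+ replicate 1, 13 sterol members were called higher in CD11c+ cells, and without KO SD CD11c+ replicate 2, KO SD CD11c+ replicate 4 or WT SD CD11c+ replicate 2, 5 were. In CD206+ cells the count was 4 without KO SD CD206+ replicate 4. With the adipocyte sum as a covariate the sterol counts were 9 and 7.

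Of the fatty acid arm on SD, 3 were called higher and 1 lower in CD11c+ cells and 1 in each direction in CD206+ cells, where single-library repeats lost the first call (Acaca) in 6 of 8 and the second (Elovl6) in 7 of 8, and both were lost without the filter on low counts. Scd2 (chr19:44293676-44306864) read 41.2, 11.5, 16.9 and 19.9 CPM in WT SD CD11c+ and 49.0, 106, 56.1 and 104 CPM in KO SD CD11c+, a rise of 1.81 ± 0.39 (adjusted p = 0.000712) with no overlap. Elovl5 fell by 0.53 ± 0.10 in the same cells (adjusted p = 9.3e-05). Acaca, the acetyl-CoA carboxylase, rose by 0.64 ± 0.24 in CD206+ cells (adjusted p = 0.0499), and its span overlaps Tada2a. In CD206+ cells Elovl6, an elongase of palmitate, fell by 0.84 ± 0.30 from a mean of 4.03 to 2.25 CPM.

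On HFD sterol members were called in both directions between the genotypes. In CD11c+ cells 5 members were called higher and 2 lower, with a median of 0.09, beside 18.6% of all genes higher and 19.4% lower. Mvd rose by 1.08 ± 0.18 (adjusted p = 2.2e-05), Pmvk, phosphomevalonate kinase, by 0.41 ± 0.15 and Insig1 by 0.36 ± 0.11 (adjusted p = 0.0119), while Hsd17b7 fell by 0.66 ± 0.26 and Hmgcs1 by 0.60 ± 0.19 (adjusted p = 0.0142). Without KO HFD CD11c+ replicate 2 the members called higher were 3 in the sterol arm and 1 in the fatty acid arm. The 2 lower sterol calls were both lost without KO HFD CD11c+ replicate 1 or WT HFD CD11c+ replicate 4. Of the 8 single-library repeats, 6 lost the call of Hsd17b7 and 2 that of Hmgcs1. In CD206+ cells 0 were called higher and Msmo1 was called lower (-0.51 ± 0.17, adjusted p = 0.0335; lost without any 1 of 6 of the 8 libraries), beside 10.5% of all genes higher and 11.3% lower. Srebf2 was at 0.09 ± 0.17 and -0.18 ± 0.17, Srebf1 at -0.12 ± 0.14 and -0.16 ± 0.14, and Insig1 at 0.17 ± 0.11 in CD206+ cells, all with adjusted p above the threshold. With only the 2 groups compared in the fit, 0 sterol members were called higher and 3 lower.

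Scd1 led the fatty acid arm on HFD. It read 19.5, 10.3, 9.09 and 9.75 CPM in WT HFD CD11c+, 14.7, 33.0, 51.4 and 10.04 CPM in KO HFD CD11c+, 20.5, 24.3, 15.8 and 15.8 CPM in WT HFD CD206+ and 86.0, 43.9, 123 and 38.6 CPM in KO HFD CD206+. KO was higher by 1.17 ± 0.44 in CD11c+ cells (adjusted p = 0.0351), where the ranges overlapped and 5 of 8 single-library repeats lost the call, and by 1.93 ± 0.43 in CD206+ cells (adjusted p = 0.00119), where they did not. In CD11c+ cells the Scd1 value without KO HFD CD11c+ replicate 3 was 0.66 (adjusted p = 0.253), the replicate block gave an adjusted p = 0.0562 and only the groups compared 0.0701. Called counts were 3 higher and 2 lower of 13 in CD11c+ and 1 higher and 2 lower in CD206+ cells. Fads1 fell by 0.76 ± 0.13 (adjusted p = 1.44e-05) and 0.40 ± 0.12 (adjusted p = 0.0191). Elovl5 rose by 0.37 ± 0.10 and Acly by 0.33 ± 0.11 in CD11c+ cells.

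Markers of other cells differed between the genotypes on HFD. All 10 stromal markers were called lower in KO in both populations, with sums of 209 to 631 CPM in WT and 75.5 to 134 in KO CD11c+ cells, and 466 to 2000 and 226 to 305 CPM in CD206+ cells. Of 6 T cell markers 5 were called higher and 1 lower in each population, while their sums overlapped (92.9 to 121 CPM in WT and 61.6 to 112 in KO CD11c+ cells). All 6 dendritic cell markers were called higher in KO CD11c+ cells and 1 in KO CD206+ cells, and 5 of 9 endothelial markers were called lower in KO CD11c+ cells. Of 10 cell cycle genes 8 were called lower in KO CD206+ cells and 0 higher, with sums of 306 to 470 CPM in WT and 201 to 294 in KO. The part of these lists was not tested.

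Adipocyte markers moved with Scd1 between the groups. On HFD 9 of 15 were called higher in KO CD206+ cells and 0 lower, with a median of 1.58, and 6 higher and 1 lower in KO CD11c+ cells. With the adipocyte sum as a covariate the Scd1 values were 0.05 in CD206+ (adjusted p = 0.964) and 0.17 in CD11c+ cells (adjusted p = 0.756). In CD206+ cells the sums of WT (44.4 to 95.7 CPM) and KO (120 to 277 CPM) did not overlap, so there the covariate largely follows genotype. Within KO HFD CD206+ the 2 libraries with the highest adipocyte sums, 277 and 255 CPM, had the highest Scd1, 123 and 86.0 CPM. Fasn, another gene abundant in adipocytes, was at 19.5 and 19.6 CPM in those 2 libraries and at 12.8 and 19.98 CPM in the others. In KO SD and WT HFD CD206+ the library with the highest sum also had the highest Scd1. In WT SD CD206+ the library with the highest sum (318 CPM) had the lowest Scd1, 129 CPM. The highest Scd1 there, 191 CPM, was at a sum of 273 CPM. The part of the adipocyte markers in Scd1 was not tested.

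**Figure D4:**
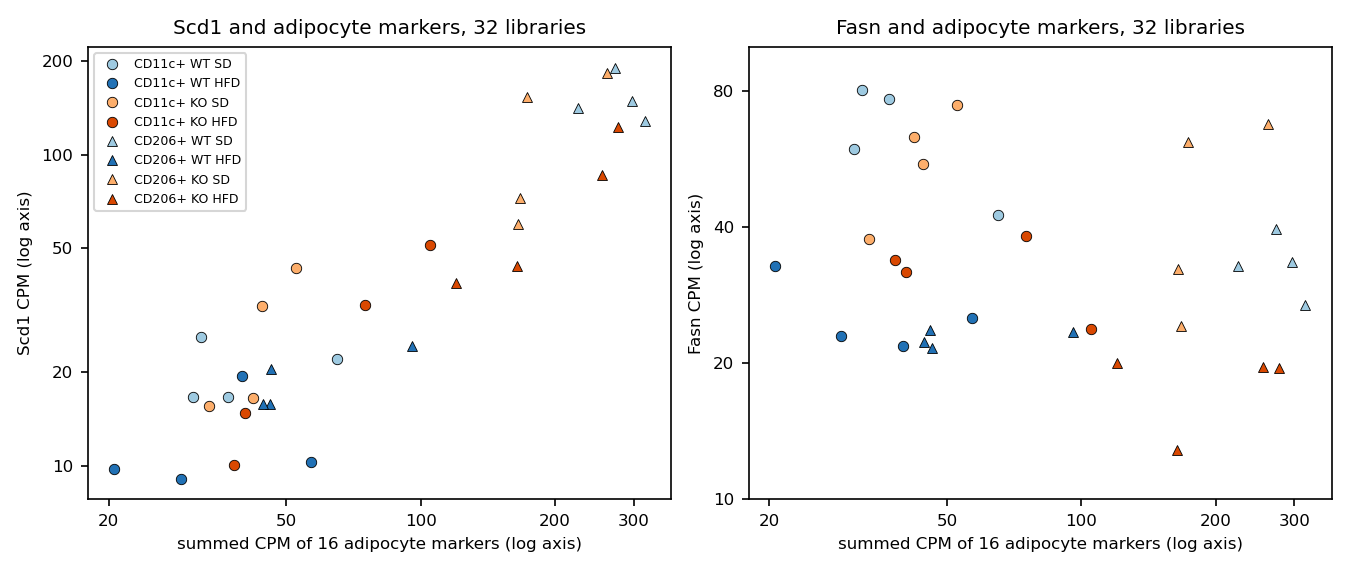
Scd1 (left) and Fasn (right) CPM against the summed CPM of 16 adipocyte markers in the 32 libraries, on log axes; colours mark genotype and diet, circles CD11c+ and triangles CD206+. Libraries with Scd1 above 100 CPM are all CD206+ and have marker sums of 173 CPM or more, while the highest Fasn values (80.2 and 76.9 CPM) lie at sums of 32.2 and 37.0 CPM.

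Of 10 LXR genes, KO against WT called 2 higher and 1 lower in SD CD11c+ cells, 2 and 0 in SD CD206+, 0 and 4 in HFD CD11c+ and 1 and 2 in HFD CD206+ cells. The 10 escort and processing genes gave 1 and 2, 2 and 1, 3 and 3, and 2 and 2 in the same order. Nr1h3 rose in KO on SD by 2.19 ± 0.19 in CD11c+ cells and from a mean of 13.4 to 57.7 CPM in CD206+ cells (adjusted p = 1.78e-09), and Abca1 by 1.30 ± 0.23 in CD11c+ cells. On HFD Apoe fell in KO by 1.67 ± 0.19 in CD11c+ cells, and Abcg1 by 0.91 ± 0.18 in CD11c+ and 0.86 ± 0.18 in CD206+ cells. Scap fell by 0.47 ± 0.12 in KO SD CD11c+ and by 0.47 ± 0.12 in KO HFD CD206+ cells. Tmem97, a sterol-responsive membrane protein, rose in KO on SD by 0.62 ± 0.12 and 0.56 ± 0.12. On SD 7 of 9 endothelial markers in CD11c+ and 8 in CD206+ cells were called lower in KO, with sums of 66.7 to 150 CPM in WT and 29.3 to 44.7 in KO CD11c+ cells. Stromal markers were called lower for 1 and 4 of 10, and T cell markers gave 1 higher and 2 lower in CD11c+ and 4 and 1 of 6 in CD206+ cells. Dendritic cell marker sums were 263 to 533 CPM in WT SD CD11c+ and 87.6 to 220 in KO SD CD11c+, and 246 to 306 in WT against a mean of 31.6 ± 8.87 CPM (SD, n = 4) in KO in SD CD206+ cells. Of 7 macrophage genes 4 were called higher and 1 lower in KO SD CD11c+ cells, and 3 and 0 in KO SD CD206+ cells. Of 10 immediate early genes 6 and 3 were called lower in the same order, with 0 higher. The part of these lists in the genotype changes was not tested.

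**Figure D5:**
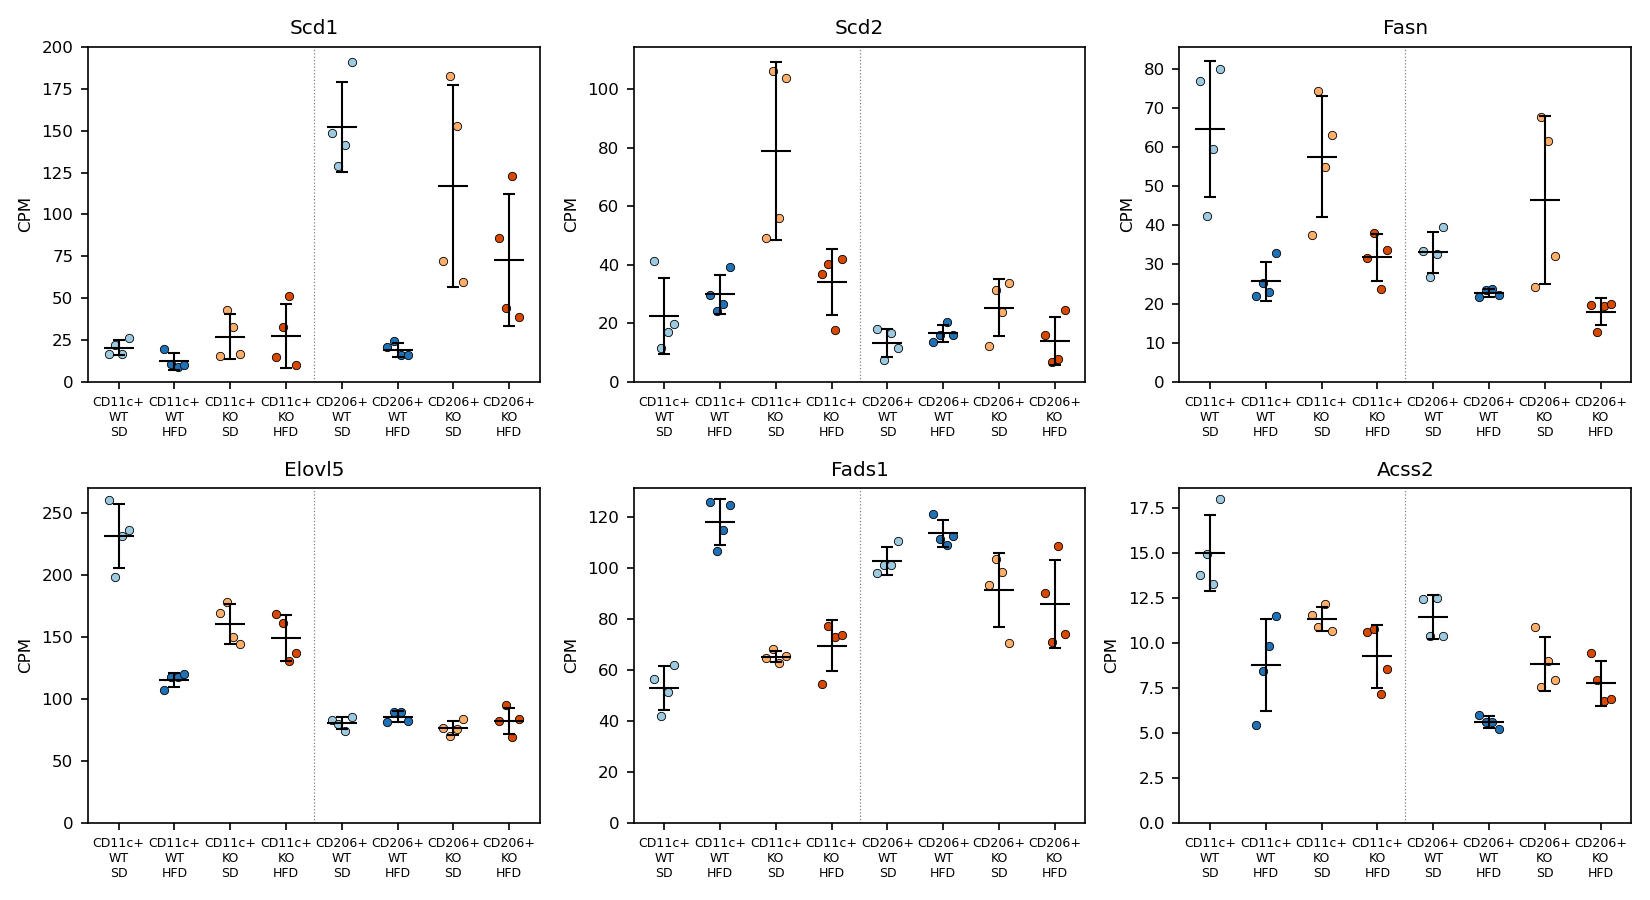
CPM of 6 fatty acid arm genes in each of the 32 libraries (points), with the mean and SD of each group of 4 (bars). Scd1 is highest in CD206+ libraries of WT SD, Elovl5 in CD11c+ libraries of WT SD, and Scd2 in CD11c+ libraries of KO SD (49.0 to 106 CPM).

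The interaction of genotype with diet tests whether the diet effect differed between KO and WT. In CD206+ cells 6 of 21 sterol members were called lower and 0 higher, meaning a more negative diet effect in KO, with a median of -0.39, beside 5.23% of all genes called higher and 6.63% lower. Those with the smallest p were Msmo1 (-1.24 ± 0.24, adjusted p = 0.000868), Hmgcs1 (-1.16 ± 0.28, adjusted p = 0.00525), Sqle (-1.75 ± 0.42, adjusted p = 0.00557) and Hsd17b7 (-1.51 ± 0.37, adjusted p = 0.00719), and Fdps and Cyp51 were also called. With the adipocyte sum as a covariate 1 sterol member was called. In WT CD206+ cells the sums of the diets did not overlap, so a lost call cannot tell the adipocyte sum and diet apart. In CD11c+ cells 5 sterol members were called lower and 2 higher, with a median of -0.40, beside 13.9% of all genes higher and 15% lower. Hsd17b7 (-1.62 ± 0.36) and Hmgcs1 (-1.13 ± 0.27) were called lower and Mvd (0.81 ± 0.25) and Ebp (0.45 ± 0.12) higher.

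Of the fatty acid arm 2 were called higher and 4 lower in CD11c+ cells, led by Elovl5 (0.90 ± 0.14, adjusted p = 7.26e-06), Fads1 (-1.07 ± 0.18, adjusted p = 3e-05) and Me1 (-1.93 ± 0.42). In CD206+ cells 2 were called higher, Scd1 (2.31 ± 0.59) and Acss2 (0.84 ± 0.24), and Elovl1 lower. The regulators passed in neither population: Srebf2 was at 0.39 ± 0.23 and -0.51 ± 0.24, Srebf1 at -0.23 ± 0.20 and -0.33 ± 0.20, and Insig1 at 0.29 ± 0.16 and -0.04 ± 0.16.

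The interaction of genotype with population tests whether the CD11c+ to CD206+ difference differed between KO and WT. No sterol member passed on either diet in the fit without a replicate block. On SD, where the numbers paired the libraries in both genotypes, the block gave 6 members in place of 2, with 1 sterol member lower and 3 fatty acid members higher and 2 lower. On HFD, where they paired only the WT libraries, it gave 1 fatty acid member higher in place of 0. On HFD 0 of 34 members passed in edgeR, with 5 at an unadjusted p under 0.05 (2 sterol, 3 fatty acid) and 1 called by DESeq2, beside 2.16% of all genes called higher and 2.2% lower. On SD Fads2, the delta-6 desaturase, was called higher (2.19 ± 0.53, adjusted p = 0.0107) at group means of 1.03 to 2.88 CPM, and Elovl5 lower (-0.46 ± 0.14, adjusted p = 0.0375), beside 4.1% and 2.48% of all genes.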

How the data were processed

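RNA-seq was deposited for 32 libraries, in 8 groups of 4 set by the sample titles. The authors deposited whole-number read counts per gene, not normalized. Per the submitters' processing notes SAMtools 0.1.18, TopHat2 2.1.0, Trimmomatic 0.35 and FastQC 0.11.4 were used on mm10 (GRCm38), with no roles stated. For the counter, annotation, strand setting and handling of reads with several matches the entry is not given in the sources used here, so counts of overlapping genes and near-identical paralogs are uncertain. Entries that name no gene held 6.63% to 12.1% of reads and were left out.

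Counts were tested in R 4.3.3 with edgeR 4.0.16 (filterByExpr, minimum count 10, 13453 genes kept; TMM factors 0.855 to 1.08; glmQLFit and glmQLFTest) in 1 fit of all 32 libraries with a mean per group. The Benjamini-Hochberg adjustment was made separately in each of 16 contrasts, and the scripts were tested on simulated data. The alternatives were DESeq2-style size factors, no filter, DESeq2 1.42.0, only the groups compared, a replicate block, the log2 adipocyte marker sum as a covariate, and leaving out each library. Same-numbered CD11c+ and CD206+ libraries deviated together, with every correlation above 0.1, in WT HFD (0.326 to 0.615), WT SD (0.234 to 0.387) and KO SD (0.217 to 0.361), so the numbers pair these samples; the labels do not state a pairing.

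Members, gene lists and rules were chosen with earlier results of these data known. Named in each comparison of 2 groups were Srebf1, Srebf2, Insig1 and up to 4 called members of each arm with the largest change and at least 10 CPM in the higher group, in interactions up to 4 with the smallest p, and up to 2 called genes of each other list. Members named beyond this rule were chosen after their values were seen, and some genes of the other lists are not reported here. Promoters came from the RefSeq table (GRCm38.p6), which has the build of the counts.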

Additional observations from a re-analysis of the deposited data

Results flagged for a closer look

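Of 272 groups of 4 libraries examined (34 members in 8 groups), 20 held a library whose gap to the nearest other was most of the group's range, and chance gives such a gap in about 5% of groups. In KO HFD CD11c+ replicate 3 the values were Sc5d 29.35 CPM, Srebf1 51.88 CPM and Acaca 7.084 CPM. In KO HFD CD206+ replicate 2 the values were Fasn 12.83 CPM. In KO SD CD11c+ replicate 2 the values were Acat2 12.59 CPM. In KO SD CD206+ replicate 1 the values were Srebf2 101.1 CPM and Stard4 10.76 CPM. In KO SD CD206+ replicate 4 the values were Elovl1 120.4 CPM. In WT HFD CD11c+ replicate 1 the values were Mvd 12.96 CPM and Scd1 19.49 CPM. In WT HFD CD11c+ replicate 2 the values were Tm7sf2 1.952 CPM. In WT HFD CD11c+ replicate 4 the values were Ebp 54.92 CPM and Elovl1 167.1 CPM. In WT SD CD11c+ replicate 1 the values were Insig1 152.6 CPM, Sqle 63.84 CPM, Sc5d 52.16 CPM and Stard4 23.05 CPM. In WT SD CD206+ replicate 1 the values were Idi1 35.87 CPM. In WT SD CD206+ replicate 2 the values were Lss 4.952 CPM. In WT SD CD206+ replicate 4 the values were Acly 264.7 CPM. The diet effect differed between KO and WT in CD11c+ macrophages (log2 difference, KO minus WT) for Acat2 (-0.74, adjusted p = 0.00826), Acly (0.54, adjusted p = 0.00995), Ebp (0.45, adjusted p = 0.00646), Elovl5 (0.90, adjusted p = 7.26e-06), Fads1 (-1.07, adjusted p = 3e-05), Fads2 (-2.20, adjusted p = 0.00227), Hmgcs1 (-1.13, adjusted p = 0.00193), Hsd17b7 (-1.62, adjusted p = 0.00102), Me1 (-1.93, adjusted p = 0.000729), Msmo1 (-0.82, adjusted p = 0.0102), Mvd (0.81, adjusted p = 0.0152), Sc5d (-0.63, adjusted p = 0.0284) and Scd2 (-1.62, adjusted p = 0.0232). In CD206+ macrophages it differed for Acss2 (0.84, adjusted p = 0.0222), Cyp51 (-1.21, adjusted p = 0.028), Elovl1 (-0.46, adjusted p = 0.0384), Fdps (-1.35, adjusted p = 0.0112), Hmgcs1 (-1.16, adjusted p = 0.00525), Hsd17b7 (-1.51, adjusted p = 0.00719), Msmo1 (-1.24, adjusted p = 0.000868), Scd1 (2.31, adjusted p = 0.00912) and Sqle (-1.75, adjusted p = 0.00557). The CD11c+ to CD206+ difference on SD differed between KO and WT for Elovl5 (-0.46, adjusted p = 0.0375) and Fads2 (2.19, adjusted p = 0.0107). These adjusted p-values come from interaction terms of the edgeR fit with 4 libraries in each group.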

How the results depend on the processing

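DESeq2-style size factors moved no count of called members by more than 1.5 times. The other settings did in some comparisons, and the cause was not tested unless the setting itself used fewer libraries. The count of members past the threshold was 11 in CD11c+ against CD206+, WT, HFD, and became 18 with only the groups compared in the fit, 21 with the replicate block and 5 with the adipocyte sum as a covariate. With only the groups compared, KO against WT in CD206+ on HFD went from 4 to 8. The covariate gave 6 in place of 29 for the populations in WT SD, 6 in place of 23 in KO HFD, 7 in place of 29 in KO SD, 7 in place of 11 for KO against WT in CD206+ on SD, 1 in place of 8 for the diet in WT CD206+, 1 in place of 9 for genotype by diet in CD206+ and 1 in place of 2 for genotype by population on SD. That last count was 6 with the replicate block and 1 with no filter on low counts, and genotype by population on HFD went from 0 to 1 with the replicate block and with DESeq2. In KO the diet count of 0 became 3 in CD11c+ with DESeq2, and 1 in CD206+ with DESeq2 and with no filter. The block changed the calls of 3 of 153 called genes, the covariate those of 85. In several comparisons the adipocyte sums of the groups did not overlap. A call lost there under the covariate does not tell the adipocyte sum and group apart. Under the covariate Acss2 in WT SD (-0.02) and Scd1 in KO HFD (0.13) changed sign between the populations. Same-numbered libraries did not all deviate together between the populations in KO HFD (correlations -0.07 to 0.42) or in any genotype or diet comparison, so there the block is no pairing.

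Without 1 library the counts were 7 to 12 and 8 to 17 for KO against WT in CD11c+ on HFD and SD, 2 to 5 and 4 to 14 in CD206+, 11 to 17 and 5 to 9 for the diet in WT CD11c+ and CD206+, 0 to 0 and 0 to 1 in KO, 4 to 10 and 25 to 30 for the populations in WT on HFD and SD, 20 to 25 and 27 to 30 in KO, 11 to 15 and 6 to 13 for genotype by diet in CD11c+ and CD206+, and 0 to 1 and 1 to 3 for genotype by population on HFD and SD. Over 1224 such repeats of called genes 174 lost the call and 0 changed sign. Depth limits Fads2, Me1 and Elovl6 most, with library values from 0.72 CPM.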
